A study of Mus musculus with 30 samples.

Results

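Cystatins are small proteins that block cysteine proteases. The genes examined are *Cst7*, *Cst3* and *Cstb*, 3 members of that family, together with 5 of the enzymes that such inhibitors act on, *Ctsc*, *Ctsl*, *Ctsf*, *Ctsk* and *Lgmn*, in microglia of *Bin1* conditional knock-out mice. *Cst7* stood 4.05- to 5.57-fold above WT in the Cre-positive groups. Of the 6 other tested genes, 0 were called in any of these comparisons, beside at most 1.17% raised and 0.645% lowered among all genes. The 8 genes were selected on the level of *Cst7*, which was higher in every Cre-positive group than in WT, to ask how the other inhibitors and their target proteases behaved. All 8 were found by symbol among the 47643 genes of the table, and 7 of them were among the 16897 genes that averaged 0.1 FPKM or more and were tested. *Ctsk* lay below that level.

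The 30 libraries were made from microglia of 3 month-old mice. WT animals (5 males and 4 females) carried a floxed *Bin1* allele beside a wild-type allele and no Cre. Het animals, Bin1 wt/flox::Cx3Cr1-Cre+, comprised 6 males and 5 females, and Homo animals, Bin1 flox/flox::Cx3Cr1-Cre+, comprised 5 males and 5 females. Cre was expressed from an allele of *Cx3cr1*, so each Cre-positive animal carried the Cre allele and had lost at least 1 *Bin1* copy, and these cannot be told apart. The study describes these cells as sorted from brain, a sample protocol describes cultures from newborn pups, and the former was followed here.

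*Bin1* fell with genotype in both sexes, but the libraries labelled Het-F-0206 and Het-M-0199 had 42.7 and 51.8 FPKM, in the range of the Homo groups (39.5 to 55.6). The other Het libraries lay between 117.3 and 164.3 FPKM. *Cx3cr1* was at 13.9 FPKM in Het-F-0206 and between 610.0 and 1243 in all other Cre-positive libraries. The 9 microglial markers examined, *P2ry12* and *Tmem119* among them, had a summed level of 12773 to 18741 FPKM in the libraries. The labels give a number for each mouse, which was split here into an early and a late range, and 3 of 5 Homo males, 2 of 6 Het males, 1 of 4 WT females and 0 of 5 WT males had an early number. Depth relative to the median library was between 0.669 and 1.41. Its median was 1.17 in WT, 0.914 in Het and 0.92 in Homo males, and 1.12, 1.005 and 0.946 in the same groups of females. Depth thus went in part with genotype, and its part in the differences from WT was not tested. In bulk samples, fewer cells of a type and less RNA per cell cannot be told apart.

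Cysteine cathepsins are proteases of endosomes and lysosomes that are made as inactive precursors and degrade proteins taken up by the cell, which makes them central to microglial clearance of debris. Cystatins fit into the active site cleft of these enzymes and keep them in check in different places. Cystatin C (*Cst3*) is secreted, cystatin B (*Cstb*) acts in the cytosol and nucleus, and cystatin F (*Cst7*) is sent to the lysosome, where cathepsin C is among its main targets. *Cst7* is also a widely used marker of activated microglia.

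The inhibitor *Cst7* and its target *Ctsc* are the pair around which the comparison turns, and the 250 bases before the RefSeq start of each gene are shown for that reason (GRCm38.p6, plus strand, 5′ to 3′). Capitals mark the letters GGAAGT or their reverse complement, which form part of the site of ETS factors such as PU.1, the factor that defines the macrophage lineage.
Cst7, chr2:150570165-150570414: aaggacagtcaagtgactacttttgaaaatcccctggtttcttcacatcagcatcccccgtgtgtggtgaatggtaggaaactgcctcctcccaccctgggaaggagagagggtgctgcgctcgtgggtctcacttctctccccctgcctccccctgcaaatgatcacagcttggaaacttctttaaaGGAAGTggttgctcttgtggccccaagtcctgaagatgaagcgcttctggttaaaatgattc
Ctsc, chr7:88277835-88278084: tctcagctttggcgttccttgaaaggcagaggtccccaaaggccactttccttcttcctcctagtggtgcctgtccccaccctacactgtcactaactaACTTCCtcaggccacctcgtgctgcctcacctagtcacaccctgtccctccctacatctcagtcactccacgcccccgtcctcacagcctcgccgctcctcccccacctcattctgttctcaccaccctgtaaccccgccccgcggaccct
The motif searched first was the longer GAGGAAGT, the core of a PU.1 site, which was found on the minus strand for *Ctsc*, not for *Cst7*, and on either strand in 2.44% of all windows. The shorter GGAAGT lies within it and was chosen after the windows of both genes had been seen, so its presence in both is a result of that choice and counts for nothing. GGAAGT was found on the plus strand for *Cst7* and on the minus strand for *Ctsc*, and was present on either strand in 19.7% of the 32851 windows of this length in the RefSeq table. Windows of *Ctsl*, *Ctsf* and *Lgmn* held the palindrome CACGTG (for *Lgmn*, 1 of its 2 windows), the E-box that the lysosomal regulator TFEB can bind, as did 6.02% of all windows. By the GENCODE positions of the genes, all 250 bases of the *Ctsl* window and of the *Lgmn* window with CACGTG lay within the gene itself, so they are not upstream sequence under that annotation. The window of *Ctsf* reached 35 bases into its gene, that of *Cst3* 180 bases and the other window of *Lgmn* 85 bases, and those of *Cst7*, *Ctsc* and *Ctsk* lay outside. None of these 3 motifs was in the windows of *Cst3* and *Ctsk*. TGANTCA, an AP-1 site, was in none of the windows of the 7 genes matched, and in 6.75% of all windows. TATAAA, the TATA box, was in the same window of *Lgmn* and in 12.4% of all windows. All motifs were searched on both strands. The RefSeq table had 7 of the 8 genes, without *Cstb*. Letters found in a window do not show that a factor binds there.

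*Cst7* (ENSMUSG00000068129) lies on chromosome 2 of GRCm38 from 150570415 to 150578944, on the plus strand. It was at 7.14, 10.1, 10.1, 10.4 and 13.1 FPKM in the WT male libraries, and at 36.2, 41.0, 45.2, 52.7 and 53.4 in the Homo male libraries. Het male libraries ranged from 31.4 to 61.2 FPKM with a median of 40.7. The highest WT male library thus stood below the lowest Cre-positive one. In females it was at 7.36, 7.48, 9.46 and 10.4 FPKM in WT, at 36.7, 39.9, 41.3, 47.6 and 50.5 in Homo, and at 35.6, 41.8, 44.2, 47.4 and 85.3 in Het mice.

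Group means of *Cst7* in FPKM were 8.67 ± 1.49 (SD, n = 4) in WT females, 10.2 ± 2.13 (SD, n = 5) in WT males, 43.2 ± 5.68 (SD, n = 5) in Homo females, 44.1 ± 11.3 (SD, n = 6) in Het males, 45.7 ± 7.43 (SD, n = 5) in Homo males and 50.9 ± 19.7 (SD, n = 5) in Het females. The only step in this order that exceeded the spread of its neighbours was that between WT and Cre-positive groups. On the log2(FPKM + 0.1) scale the difference from WT of the same sex was 2.08 in Homo males, 2.02 in Het males, 2.31 in Homo females and 2.48 in Het females, or 4.24-, 4.05-, 4.95- and 5.57-fold. These differences chose the gene list and are given as a description. The Homo and Het groups of a sex share their WT libraries.

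**Figure D1:**
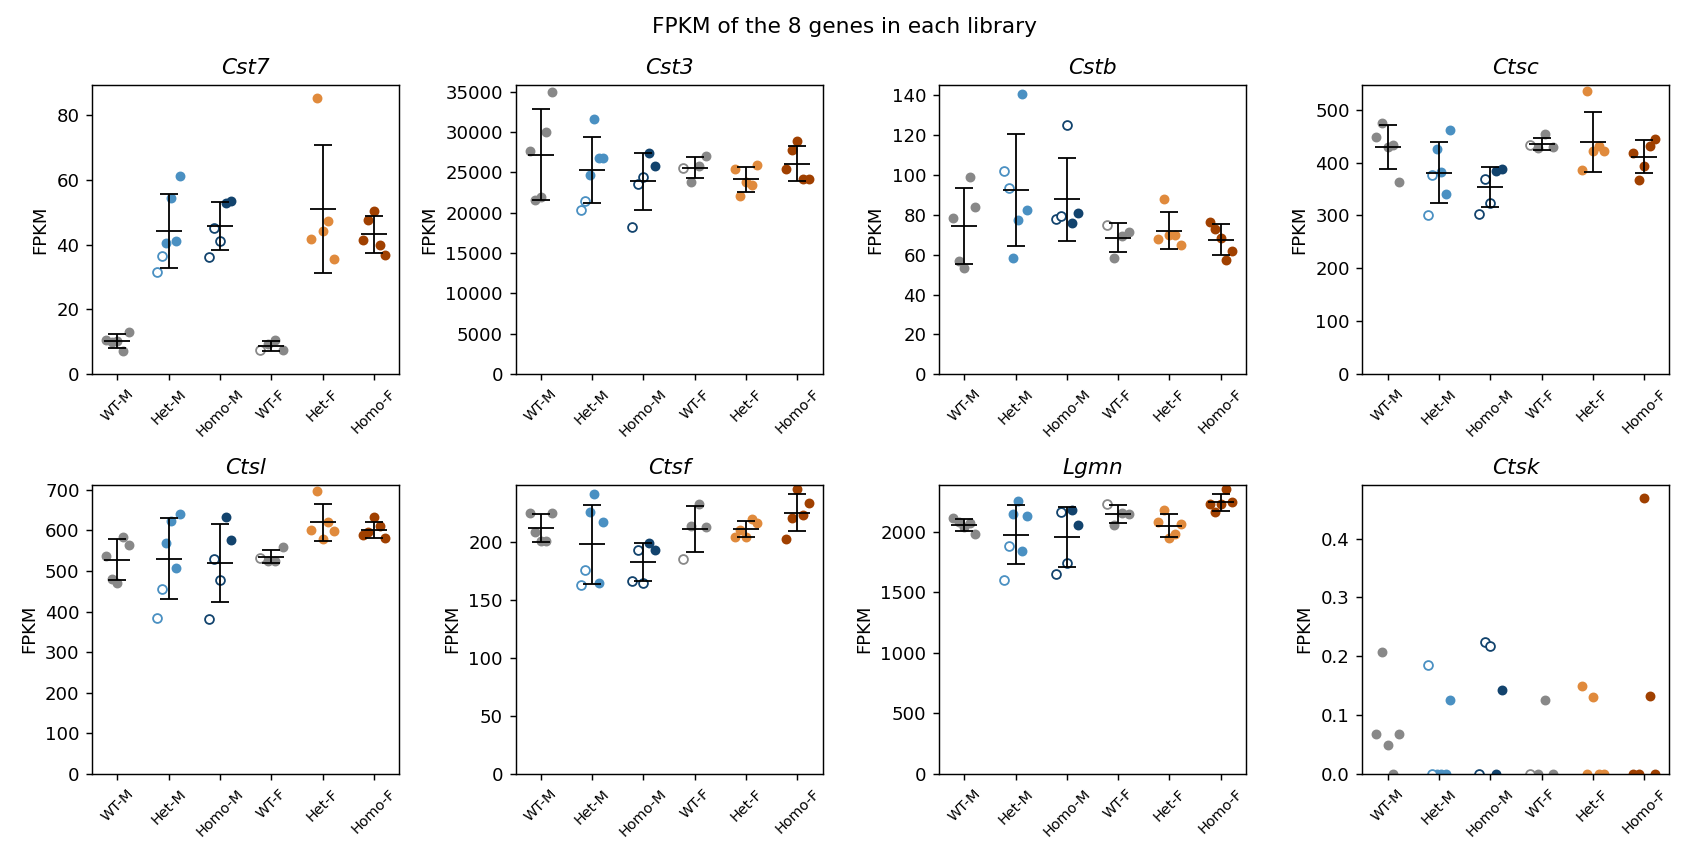
FPKM of the 8 genes (y axes from 0) in each library of the 6 groups (x axis); filled points are late and open points early mouse numbers, and bars give the mean and SD, left out for *Ctsk*. *Cst7* is at or below 13.1 FPKM in all WT libraries and at or above 31.4 in all Cre-positive libraries, whereas the groups overlap for *Cst3*, *Cstb*, *Ctsc*, *Lgmn* and *Ctsk* and overlap in most comparisons for *Ctsl* and *Ctsf*.

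Comparisons of *Cst7* other than those of Cre-positive groups with WT were tested. Those of Homo with Het mice, and of the effects in males and females, are not independent of its choice. That choice asked for a rise in every Cre-positive group, which favours similar values in these groups. By limma with Benjamini-Hochberg adjustment, *Cst7* differed between Homo and Het mice by 0.06 on the log2 scale in males (95% interval -0.35 to 0.48, adjusted p = 0.998) and by -0.17 in females (-0.60 to 0.26, adjusted p = 1.0). The upper limits of these intervals correspond to 1.39-fold in males and 1.20-fold in females. The effect in males minus that in females was -0.22 for Homo (-0.85 to 0.41) and -0.46 for Het mice (-1.07 to 0.16), and WT females differed from WT males by -0.21 (-0.67 to 0.25).

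The library labelled Het-F-0206 had the highest *Cst7* of all 30. Without it the Het female difference from WT was 2.28, and without both this library and Het-M-0199 the Het male difference was 1.94. Among late numbered mice alone, the differences were 2.40 in Homo males, 2.25 in Het males, 2.23 in Homo females and 2.40 in Het females.

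Among the 7 tested members, *Cst7* was the lowest in level and *Cst3* the highest. *Cst3* (ENSMUSG00000027447, chromosome 2, 148871722 to 148875692, minus strand) had the highest FPKM of any gene in 30 of 30 libraries, and accounted for 3.74% to 6.80% of all FPKM in a library. Its level was 27216 ± 5680 FPKM (SD, n = 5) in WT males, 25272 ± 4108 (SD, n = 6) in Het males, 23900 ± 3492 (SD, n = 5) in Homo males, 25570 ± 1306 (SD, n = 4) in WT females, 24134 ± 1569 (SD, n = 5) in Het females and 26075 ± 2147 (SD, n = 5) in Homo females. The libraries of WT males ranged from 21534 to 35007 FPKM and enclosed all but the lowest 2 Het males and the lowest Homo male library, Homo-M-0093 at 18209. The limma difference from WT was -0.26 in Homo males (95% interval -0.81 to 0.29, adjusted p = 0.590), -0.17 in Het males (-0.70 to 0.36), 0.02 in Homo females (-0.56 to 0.61) and -0.09 in Het females (-0.67 to 0.49). The Homo male value was -0.14 without Homo-M-0093 and -0.17 without WT-M-0258, -0.03 with the number range as a covariate and -0.0081 among late numbered mice alone. In Het males the covariate gave -0.04 and late numbered mice alone 0.02. In the mean of its groups *Cst7* made up 0.0340% to 0.0383% of the summed FPKM of the 3 cystatins in WT mice, and 0.165% to 0.214% in the Cre-positive groups.

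*Cstb* (ENSMUSG00000005054, chromosome 10, 78425669 to 78427622, plus strand) was at 53.4, 56.8, 78.2, 83.99 and 99.3 FPKM in WT males and at 75.7, 78.0, 79.3, 80.9 and 124.9 in Homo males. The Het male libraries ranged from 58.6 to 140.9 with a median of 88.2. Female means were 68.5 ± 7.16 (SD, n = 4) for WT, 72.1 ± 9.22 (SD, n = 5) for Het and 67.5 ± 7.77 (SD, n = 5) for Homo. The groups overlapped in both sexes. The limma difference from WT was 0.17 in Homo males (95% interval -0.15 to 0.49, adjusted p = 0.538), 0.23 in Het males (-0.07 to 0.53, adjusted p = 0.469), -0.03 in Homo females (-0.36 to 0.31) and 0.06 in Het females (-0.27 to 0.40). Leaving out 1 library moved the Homo male value between 0.06, without Homo-M-0109, and 0.27, without WT-M-0202, and it was 0.07 without WT-M-0178 and 0.09 without WT-M-0177. Of the other cystatin family genes, 20 of 24 were found by symbol, 15 of these were at 0 in all libraries, and only *Kng2*, a kininogen that carries cystatin domains, was tested, at a mean of 0.506 FPKM over the 30 libraries. It was not called in any of the 4 comparisons with WT, with 0 at an unadjusted p below 0.05.

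The enzyme that cystatin F is best known to restrain is cathepsin C, a dipeptidyl peptidase that trims the precursors of granule serine proteases. *Ctsc* (ENSMUSG00000030560, chromosome 7, 88278085 to 88310888, plus strand) was at 362.7, 430.1, 433.4, 447.8 and 473.9 FPKM in WT male libraries and at 302.8, 323.4, 368.8, 384.8 and 388.4 in Homo male libraries. Het male libraries ranged from 300.1 to 460.7 with a median of 379.2. A single WT male library, WT-M-0258, fell within the Homo male range. Females were at 435.2 ± 12.1 (SD, n = 4) for WT, 438.8 ± 56.4 (SD, n = 5) for Het and 411.0 ± 31.2 (SD, n = 5) for Homo, with overlap of the groups.

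The limma difference of *Ctsc* from WT was -0.37 in Homo males on the log2 scale (95% interval -0.64 to -0.09, standard error 0.14), which did not pass the threshold after adjustment over all genes (adjusted p = 0.113). Among late numbered mice alone, where 2 Homo male libraries remain, it was -0.15 (standard error 0.15, adjusted p = 0.892), and a covariate for the number range gave -0.18 (adjusted p = 0.768). In Het males it was -0.26 (-0.52 to 0.01, adjusted p = 0.368). In females it was -0.09 in Homo (-0.38 to 0.21) and -0.002 in Het mice (-0.30 to 0.29).

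Expressed against its target, *Cst7* was at 2.42% ± 0.733 of the *Ctsc* FPKM (SD, n = 5) in WT males and 1.99% ± 0.308 (SD, n = 4) in WT females. It was at 11.5% ± 1.97 (SD, n = 6) in Het males, 12.9% ± 0.821 (SD, n = 5) in Homo males, 11.3% ± 2.77 (SD, n = 5) in Het females and 10.6% ± 2.15 (SD, n = 5) in Homo females. The inhibitor transcript remained below that of the enzyme in every library, with a highest share of 15.9% in Het-F-0206. Because *Cst7* was chosen for its change, these shares are a description.

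The granule proteases that cathepsin C matures were near absent. Of 8 such genes, 7 (*Prtn3*, *Gzma*, *Gzmb* and *Gzmk* among them) were at 0 in all 30 libraries, and *Elane* was above 0 in a single library, at 0.152 FPKM.

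Cathepsin L is an endopeptidase of the lysosome. *Ctsl* (ENSMUSG00000021477, chromosome 13, 64359337 to 64370890, minus strand) was at 525.0, 525.4, 531.8 and 559.4 FPKM in WT female libraries, at 580.0, 599.2, 602.2, 620.6 and 697.2 in Het females and at 582.0, 588.7, 595.6, 610.0 and 632.7 in Homo female libraries. Every Cre-positive female library was thus above every WT female library. The limma difference was 0.20 in Het females (95% interval -0.12 to 0.53, adjusted p = 1.0) and 0.17 in Homo females (-0.16 to 0.49, adjusted p = 1.0). In males the means were 527.5 ± 50.6 (SD, n = 5) for WT, 530.3 ± 99.8 (SD, n = 6) for Het and 520.1 ± 95.5 (SD, n = 5) for Homo, and the groups overlapped. The limma intervals rest on 1 spread shared by all 6 groups, so those of females do not measure the female spread. The SD was 3.05% of the mean in WT, 7.35% in Het and 3.35% in Homo females, and 9.60%, 18.8% and 18.4% in the same groups of males. Other settings of the limma fit included 1 of the compared groups alone. Under these the female difference ran from 0.0868 to 0.2087 in Het and from 0.0487 to 0.1685 in Homo mice. The lowest adjusted p among them was 0.661 in Het and 0.700 in Homo females.

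The sign of the male *Ctsl* difference turned with the mouse numbers. It was -0.12 in Homo males and -0.08 in Het males over all libraries, and 0.20 and 0.13 among late numbered mice alone (adjusted p = 0.760 and 0.798). The lowest *Ctsl* values of the Homo and Het males, 382.7 FPKM in Homo-M-0093 and 383.9 in Het-M-0100, belonged to early numbered mice. These libraries also had the lowest relative depths of all, 0.669 and 0.722. The number range is a label of the animals and its part in the result was not tested beyond these fits. The part of depth was not tested.

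Cathepsin F is a further lysosomal cysteine protease. *Ctsf* (ENSMUSG00000083282, chromosome 19, 4855130 to 4860918, plus strand) was at 201.2, 201.2, 209.0, 225.2 and 225.2 FPKM in WT males and at 164.4, 166.6, 192.9, 193.5 and 198.9 in Homo male libraries, without overlap. Its limma difference was -0.30 (95% interval -0.56 to -0.04, adjusted p = 0.166), and it was -0.11 among late numbered mice alone (adjusted p = 0.913) and -0.08 when the number range was a covariate (adjusted p = 0.907). Het male libraries ranged from 162.7 to 241.5 with a median of 196.7. Female means were 211.5 ± 19.6 (SD, n = 4) for WT, 211.3 ± 7.04 (SD, n = 5) for Het and 225.4 ± 15.9 (SD, n = 5) for Homo. The effect in Homo males minus that in Homo females was -0.39 (-0.77 to -0.01), with an adjusted p of 0.535.

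Legumain, the asparaginyl endopeptidase, belongs to another protease family and cleaves cathepsin precursors, and it is inhibited by some cystatins at a second site. *Lgmn* (ENSMUSG00000021190, chromosome 12, 102394084 to 102439813, minus strand) ranked between 17 and 24 among all genes by FPKM. It was at 2060 ± 51.0 (SD, n = 5) in WT males, 1978 ± 243.9 (SD, n = 6) in Het males, 1960 ± 244.9 (SD, n = 5) in Homo males, 2149 ± 74.3 (SD, n = 4) in WT females, 2053 ± 92.2 (SD, n = 5) in Het females and 2246 ± 68.5 (SD, n = 5) in Homo females. The male Cre-positive groups had the widest spread, from 1606 to 2257 FPKM, and the groups overlapped in both sexes. The differences from WT were between -0.16 and 0.06 on the log2 scale. In Homo males the value was -0.16 over all libraries and 0.04 among late numbered mice alone.

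*Ctsk* (ENSMUSG00000028111, chromosome 3, 95499256 to 95509362, plus strand), the collagen-degrading cathepsin of osteoclasts, was listed at 0 in 16 of 30 libraries and at 0.468 FPKM at most, in Homo-F-0228. It lies next to *Ctss*, which had a mean of 5129 FPKM over the same libraries. At this level no comparison of *Ctsk* between groups was made.

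Of the 6 tested members other than *Cst7*, 0 were raised and 0 lowered past an adjusted p of 0.05 and a fold change of 1.5 in each of the 4 comparisons with WT. Of all genes tested, 1.17% were raised and 0.645% lowered in Homo males, 0.124% and 0.0296% in Het males, 0.0651% and 0.00592% in Homo females, and 0.13% and 0.0% in Het females. A count of 0 of 6 is near these shares. At an unadjusted p below 0.05 there were 2 of 6 in Homo males (*Ctsc* and *Ctsf*, both lower), against 22.5% of all genes. It was 0 of 6 in Het males, Homo females and Het females, against 14.2%, 3.49% and 3.95%. Their median difference was -0.21 in Homo males, -0.16 in Het males, 0.04 in Homo females and -0.002 in Het females, beside 0.03, 0.01, 0.001 and 0.00 over all genes.

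A further description is whether the libraries of 2 groups overlap. In Homo males 1 of 6 members, *Ctsf*, lay wholly below WT and 0 wholly above, beside 1.37% and 2.56% of all genes. In Het males it was 0 of 6 in either direction, beside 0.326% lower and 0.515% higher. In Homo females and Het females *Ctsl* lay wholly above WT, 1 of 6 in each, beside 1.65% and 1.58% of all genes, and 0 lay wholly below, beside 0.663% and 0.633%.

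**Figure D2:**
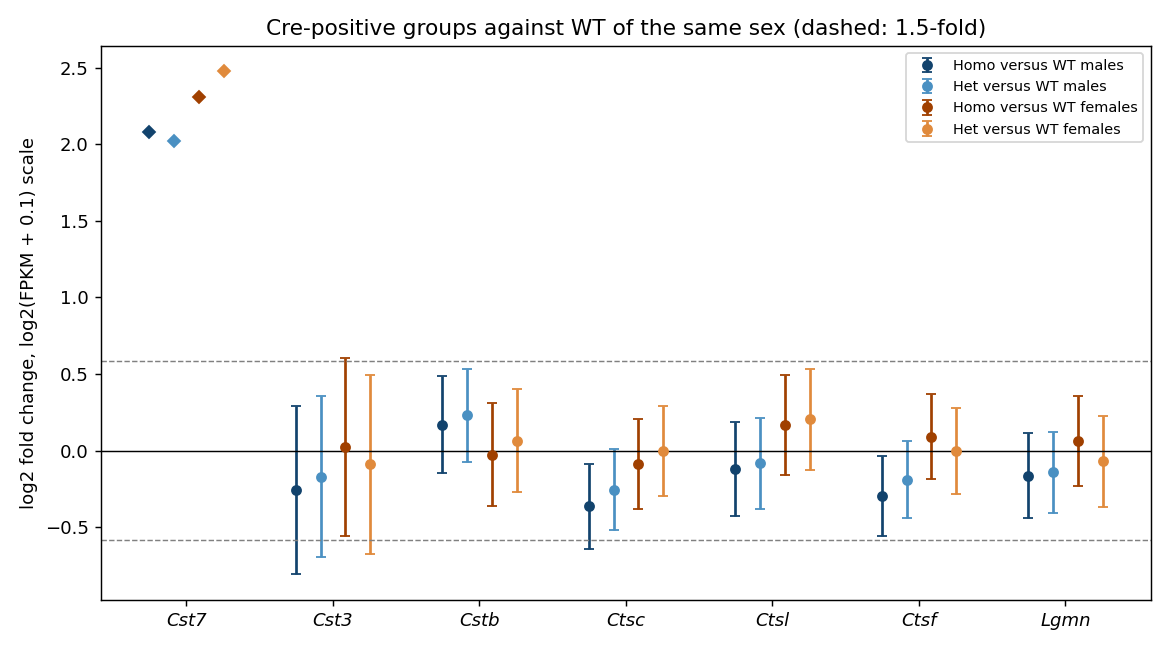
Difference from WT of the same sex (y axis, log2 fold change on the log2(FPKM + 0.1) scale) for the 7 tested genes (x axis) in the 4 Cre-positive groups; bars are 95% intervals from limma, diamonds show *Cst7* without an interval because these comparisons chose it, and dashed lines mark 1.5-fold. *Cst7* lies between 2.02 and 2.48, and the other 6 genes lie between -0.37 and 0.23.

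The intervals of the other 6 members lay below the *Cst7* differences in each comparison. Because those differences chose *Cst7*, this gap is a description and not a test. The highest upper 95% limit among the 6 genes was 1.40-fold in Homo males, 1.45-fold in Het males, 1.52-fold in Homo females and 1.44-fold in Het females. The point estimates ran from -0.37 to 0.17, from -0.26 to 0.23, from -0.09 to 0.17 and from -0.09 to 0.20 on the log2 scale.

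Between Homo and Het mice, 0 of the 7 tested members were called in either sex, beside 0.0% of all genes in males and 0.0118% in females, and 0 of 7 had an unadjusted p below 0.05, beside 3.85% and 2.06%. The interaction of sex with genotype was called for 0 of 7 members in Homo and in Het mice, beside 0.0% of all genes in each. *Ctsf* alone had an unadjusted p below 0.05 in the Homo interaction, and 0 of 7 did in the Het interaction, beside 9.29% and 4.53% of all genes. WT females and males differed in 0 of 7 members, beside 0.0473% of all genes, with 0 of 7 at an unadjusted p below 0.05, beside 2.91%.

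The wider set of lysosomal proteases gave the same counts of calls. Of the other cysteine cathepsins, 15 were found and 6 were tested (*Ctsb*, *Ctsh*, *Ctso*, *Ctss*, *Ctsw* and *Ctsz*), with 0 raised and 0 lowered in each of the 4 comparisons and 0 at an unadjusted p below 0.05, where the shares of all genes were those given for the members. *Ctss*, the cathepsin that cuts the invariant chain of MHC class II, was the highest of them, at 5183 ± 445.2 FPKM (SD, n = 5) in WT males and 4649 ± 974.5 (SD, n = 5) in Homo males. *Ctsb* was at 940.0 ± 41.6 (SD, n = 5) in WT males and 814.5 ± 148.6 (SD, n = 5) in Homo males. Means over the 30 libraries were 1249 FPKM for *Ctsz*, 678.3 for *Ctsh*, 91.3 for *Ctso* and 0.439 for *Ctsw*. The 7 genes at 0 in all libraries belong to the cathepsin cluster on chromosome 13 that is known from placenta.

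Of 9 other lysosomal proteases, 7 were tested and 0 were called in any of the 4 comparisons. At an unadjusted p below 0.05 there were 3 of 7 in Homo males, 2 in Het males, 1 in Homo females and 2 in Het females, beside 22.5%, 14.2%, 3.49% and 3.95% of all genes. *Ctsd*, the main aspartic protease of the lysosome, had a mean of 9206 FPKM over the 30 libraries, followed by *Ctsa* at 801.7, *Tpp1* at 160.4, *Scpep1* at 74.9 and *Prcp* at 44.8. *Dpp7*, a dipeptidyl peptidase of intracellular vesicles, was at 35.6 ± 4.43 (SD, n = 5) in WT males, 50.5 ± 8.19 (SD, n = 6) in Het males, 46.8 ± 6.36 (SD, n = 5) in Homo males, 34.9 ± 5.14 (SD, n = 4) in WT females, 48.1 ± 9.79 (SD, n = 5) in Het females and 43.7 ± 2.65 (SD, n = 5) in Homo females. Its limma difference was 0.31 in Homo males, 0.42 in Het males, 0.33 in Homo females and 0.45 in Het females, with an unadjusted p below 0.05 in each and adjusted p of 0.106, 0.0983, 1.0 and 0.194. The WT and Cre-positive libraries of *Dpp7* overlapped in every comparison.

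The aspartic protease *Ctse* had a difference of 1.06 in Het males (adjusted p = 0.324) and 1.40 in Het females (adjusted p = 0.832), at a mean of 0.301 FPKM over the 30 libraries. Genes that sort enzymes to the lysosome through the mannose 6-phosphate tag or sortilin were measured as well. Of 6, 5 were tested, *M6pr* at a mean of 146.2 FPKM, *Nagpa* at 79.2, *Gnptg* at 53.2, *Sort1* at 50.9 and *Gnptab* at 5.64, and 0 of 5 were called in the 4 comparisons, with 1 of 5 at an unadjusted p below 0.05 in Homo males, beside 22.5% of all genes, and 0 in the others, beside 14.2%, 3.49% and 3.95%.

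**Figure D3:**
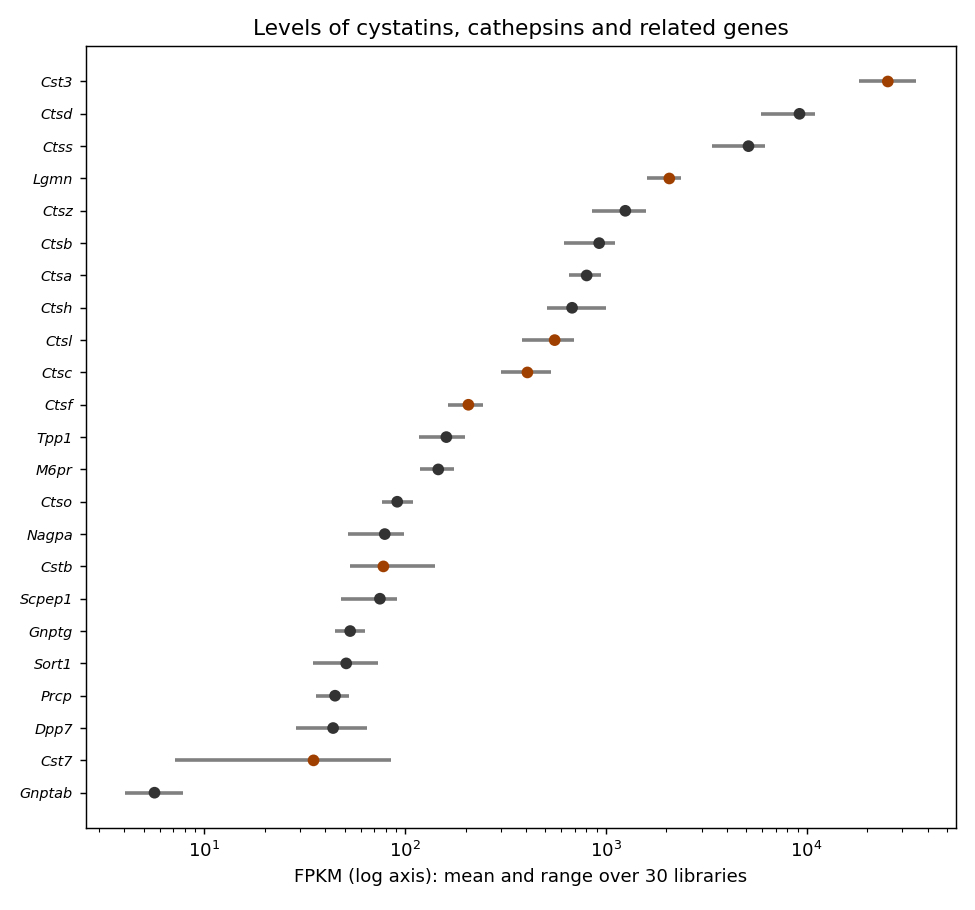
Mean FPKM (points) and range (grey lines) over the 30 libraries, on a log axis, of the 23 cystatin, protease and sorting genes with a mean of at least 1 FPKM; the members are in orange. *Cst3* leads at 25351 FPKM, and *Cst7* has the widest relative range, from 7.14 to 85.3 FPKM.

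Levels per length allow the transcripts of the inhibitors to be set against those of the enzymes. Amounts, maturation and location of the proteins were not measured in these libraries. The summed FPKM of 10 cysteine cathepsins (*Ctsb*, *Ctsc*, *Ctsf*, *Ctsh*, *Ctsk*, *Ctsl*, *Ctso*, *Ctss*, *Ctsw* and *Ctsz*) was 9257 ± 666.2 (SD, n = 5) in WT males, 8904 ± 1487 (SD, n = 6) in Het males and 8392 ± 1417 (SD, n = 5) in Homo males. In females it was 9136 ± 326.2 (SD, n = 4) for WT, 10008 ± 695.4 (SD, n = 5) for Het and 9803 ± 460.8 (SD, n = 5) for Homo. The ratio of *Cst3* to this sum was between 1.97 and 3.49 in all libraries, with group means from 2.43 in Het females to 2.92 in WT males.

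Libraries of the same group differed from each other along a common line for the enzymes. Over the deviations of the 30 libraries from their group means on the log2 scale, Pearson's r was 0.91 between *Ctsl* and *Lgmn*, 0.88 between *Ctsc* and *Lgmn*, 0.86 between *Ctsf* and *Lgmn* and 0.74 between *Ctsc* and *Ctsf*. *Cst7* followed them, with r of 0.69 with *Ctsl*, 0.65 with *Ctsf*, 0.61 with *Ctsc* and 0.61 with *Lgmn*, whereas the median over all genes of at least 1 FPKM was -0.01. *Cstb* did not, with r of -0.05 with *Cst7*, -0.46 with *Ctsf* and -0.37 with *Lgmn*. Values of a library share its depth, scaling and RNA, so these are descriptions.

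The shared line rested in part on the early numbered mice. Among the 24 late numbered libraries alone, r with *Cst7* was 0.46 for *Ctsl*, 0.38 for *Ctsf*, 0.37 for *Ctsc*, 0.31 for *Lgmn* and 0.04 for *Cst3*, while *Ctsf* and *Lgmn* kept 0.82. Without Het-F-0206 the values with *Cst7* were 0.73, 0.77, 0.57, 0.65 and 0.65 in the same order. Without removing the group means, r with *Cst7* over the 30 libraries was between -0.15 and 0.27 for the other 6 members.

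**Figure D4:**
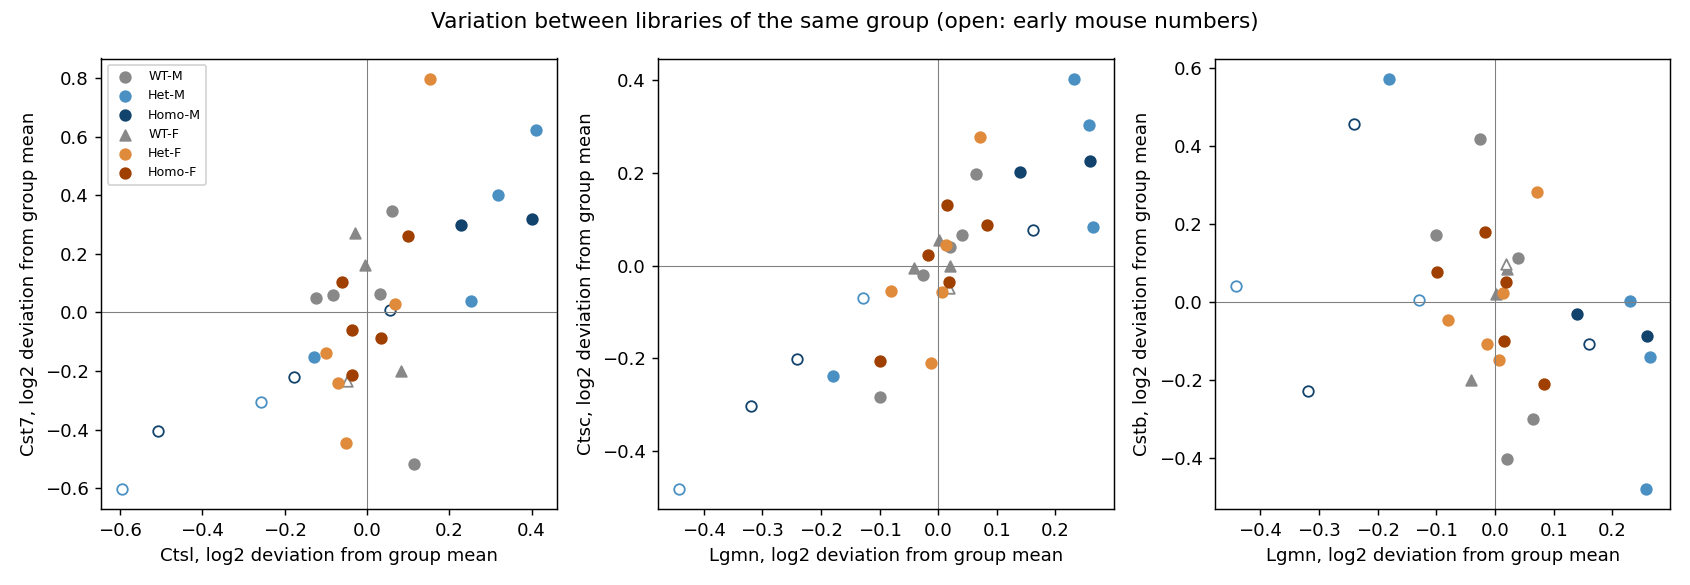
Deviation of each library from its group mean (log2 scale) for *Cst7* against *Ctsl*, *Ctsc* against *Lgmn* and *Cstb* against *Lgmn*; colours are the 6 groups, triangles are WT females and open points are early mouse numbers. The first pair has r of 0.69, the second 0.88 and the third -0.37 over 30 libraries.

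The genes whose pattern was most like that of *Cst7* were looked for among the 11621 other genes with a mean of at least 1 FPKM. Over the 30 libraries the highest r was that of *Chst1* at 0.94, followed by *Pdcd1* at 0.94, *Chst2* at 0.91, *Lox* at 0.90 and *Rxrg* at 0.88. This r includes the step between WT and Cre-positive groups that chose *Cst7*, so it is a description. The study lists each of these genes, with *Cst7*, as increased regardless of sex. By deviations from the group means their r with *Cst7* was 0.66, 0.48, 0.41, 0.61 and 0.34 in the same order. *Chst1*, a sulfotransferase of keratan chains, had means of 16.2 FPKM in WT males and 34.1 in Homo males, and of 13.2 in WT females and 35.4 in Homo females. *Pdcd1*, the checkpoint receptor PD-1, had means of 3.17 and 12.96 FPKM in WT and Homo males, and of 3.03 and 11.4 in WT and Homo females. By r over the 30 libraries, with group means kept, *Ctsl* ranked 1088, *Cstb* 2352, *Lgmn* 6086, *Ctsf* 6150, *Cst3* 8229 and *Ctsc* 8892.

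By deviations from the group means, the genes most like *Cst7* were *Ifi30* at 0.83, *Spint1* at 0.81, *H2-DMa* at 0.78, *Adap1* at 0.77 and *Amz1* at 0.77. *Ifi30* encodes a lysosomal thiol reductase, *H2-DMa* a chaperone of MHC class II loading and *Spint1* an inhibitor of serine proteases. *Ctsl* ranked 63 of 11621 in this list, *Ctsf* 232, *Ctsc* 412, *Lgmn* 442, *Cst3* 1510 and *Cstb* 6153. Among the late numbered libraries *Ifi30* kept an r of 0.72 and *H2-DMa* of 0.64.

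Cell types other than microglia in which *Cst7* or *Ctsc* are known to be high were checked by their markers. Of 13 T and NK cell markers, 5 (*Cd3e*, *Cd3g*, *Gzma*, *Gzmb* and *Ncr1*) were at 0 in all libraries, and the summed level was 0.957 FPKM at most. Of 10 neutrophil markers 8 had a mean of at least 0.1 FPKM, and their summed level ran from 44.3 to 350.4 in WT males, from 0.0437 to 189.6 in Het males, from 0.0341 to 80.8 in Homo males, from 6.98 to 159.3 in WT females, from 0.179 to 89.3 in Het females and from 0.314 to 72.9 in Homo females. Their median was 72.8 in WT, 12.4 in Het and 0.643 in Homo males, and 43.1 in WT, 23.7 in Het and 11.95 in Homo females. This median was lower in the Cre-positive groups of both sexes. The *Ctsc* differences from WT were -0.37 in Homo and -0.26 in Het males, and -0.09 in Homo and -0.002 in Het females. The study sorted CD11b+ cells with intermediate CD45. The part of neutrophil RNA in the *Cst7* and *Ctsc* values was not tested. Border macrophage markers, 10 of 10 present, summed to 19.1 to 54.6 FPKM in WT males and 13.3 to 32.4 in Homo males. The median sum was 46.9 in WT, 20.7 in Het and 25.7 in Homo males, and 27.8, 16.3 and 18.3 in the same groups of females. Over all libraries the summed markers of monocytes ran from 3.36 to 18.8 FPKM, of astrocytes from 66.1 to 131.1 and of neurons from 2.33 to 20.8. Those of oligodendrocytes ran from 61.0 to 173.9, of endothelial cells from 241.3 to 414.2 and of choroid plexus epithelium from 0.0439 to 276.8. The median choroid plexus sum was 76.2 in WT, 6.54 in Het and 11.9 in Homo males. In the same groups of females it was 12.5, 0.854 and 1.1. The part of border macrophage or choroid plexus RNA in the values of the members was not tested. The endothelial sum was mostly *Bsg*, at a mean of 335.1 FPKM, beside 0.0156 for *Cldn5*. The astrocyte sum was mostly *Slc1a3*, at a mean of 82.3 FPKM, beside 0.162 for *Aqp4*. *Cnp* at 37.2 and *Mbp* at 21.5 led the oligodendrocyte sum, beside 0.242 for *Mog*.

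*Cst7* is counted among the genes of disease-associated microglia, and other genes listed for that state were compared as well. Of 15 such genes other than the members, 0 were raised and 1 (*Apoe*, -1.13, adjusted p = 0.0023) was lowered in Homo males, and 1 (*Axl*, 1.35, adjusted p = 0.00823) was raised and 0 lowered in Het females. Of all genes, 1.17% were raised and 0.645% lowered in Homo males, and 0.13% and 0.0% in Het females. The count was 0 in both directions in Het males and Homo females, beside 0.124% and 0.0651% raised and 0.0296% and 0.00592% lowered. Of the 15 genes, 8 in Homo males, 10 in Het males, 10 in Homo females and 11 in Het females had a positive difference. Without adjustment, 5, 3, 2 and 4 of the 15 had p below 0.05 in Homo males, Het males, Homo females and Het females, beside 22.5%, 14.2%, 3.49% and 3.95% of all genes. The list shares *Ctsb*, *Ctsd* and *Ctsz* with the protease lists above. The median difference of the 15 genes was 0.05, 0.14, 0.15 and 0.23 in Homo males, Het males, Homo females and Het females, beside 0.03, 0.01, 0.001 and 0.00 over all genes.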

How the data were processed

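RNA of microglia was sequenced by the authors, who aligned the reads to mm10 with OmicSoft OSA4 and the Ensembl release 84 gene model, estimated abundance with RSEM and deposited FPKM (fragments per kilobase, relative to those mapped in a library) on a linear scale. The version of RSEM is not given in the sources used here. The submitters' processing notes also name DESeq2; read counts were not analysed here, so its fit was not repeated. Of the columns in the table, 6 match no listed sample and were not used. FPKM hold no read totals, so absolute depth is unknown and no counting error is given. Relative depth was read from the steps between values of 8945 low genes, with an error of at most 0.196% on simulated data.

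Libraries were scaled by median of ratios (genes averaging 1 FPKM or more), and 0.1 was added before log2, which understates the change of low genes. The 16897 genes with a mean of at least 0.1 FPKM were compared by limma 3.58.1 in R 4.3.3, in a fit of all 6 groups with an intensity trend. All 6 groups share 1 estimate of the spread of a gene, so an interval does not measure the spread of the compared groups alone. A gene was called when its p, adjusted by Benjamini-Hochberg, was below 0.05 and it changed more than 1.5-fold. Replicates are labelled by mouse number and no number is shared between groups. Tested on simulated data with 200 of 16449 genes changed 2.5-fold between male Homo and WT mice, 94.5% were recovered with 13 false calls. The changed genes were drawn only from those above a level that was higher than the minimum for testing. The simulated spread came from deviations from group means without a correction for those means, which makes it somewhat too small. Genes varied independently of each other in the simulation, unlike in the libraries. The recovered share does not apply to genes lower than those changed, nor to smaller differences such as those of the members other than *Cst7*.

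The members and lists were chosen with earlier results of these data known. Genes named are the 8 members, *Bin1*, *Cx3cr1*, genes of the protease and inhibitor lists with a mean of at least 1 FPKM, and the 5 genes most like *Cst7* by each of the measures of likeness. *Dpp7*, *Ctse*, *Ctsw*, *Kng2*, *Elane*, *Apoe*, *Axl* and the genes at 0 were named after their values were seen. So were the markers *Bsg*, *Cldn5*, *Slc1a3*, *Aqp4*, *Cnp*, *Mbp* and *Mog*. Marker lists covered microglia, T and NK cells, neutrophils, border macrophages, monocytes, astrocytes, neurons, oligodendrocytes, endothelial cells, choroid plexus and disease-associated microglia; 1 microglial marker is not reported here. Positions are from GENCODE M21 on GRCm38, and promoter windows from RefSeq on GRCm38.p6. Results were recomputed with pseudocounts of 1 and 0.01, with a minimum of 1 FPKM and without one, without scaling, with quantile normalization, with array weights, with the compared groups alone, with mouse number range as a covariate or late numbers alone, without a fold threshold, and leaving out libraries. Python 3.11.15, numpy 2.4.6 and pandas 2.3.3 were used.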

Additional observations from a re-analysis of the deposited data

Results flagged for a closer look

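By Dixon's ratio, 5 of 48 sets of a member's values within a group had a library far from the others. For the 7 tested members it was 3 of 42, where chance gives about 1 in 20. That rate does not hold for *Ctsk*, which had the other 2 and many libraries tied at 0. *Cst7* was at 85.3 FPKM in Het-F-0206, against 35.6 to 47.4 in the other female Het libraries. The same library had *Cstb* at 88.2 FPKM, against 64.9 to 69.7. *Cstb* was at 124.9 FPKM in Homo-M-0109, against 75.7 to 80.9 in the other male Homo libraries. *Ctsk* was at 0.125 FPKM in WT-F-0200, where the other female WT libraries were at 0, and at 0.468 in Homo-F-0228, against at most 0.132 in the other female Homo libraries.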

How the results depend on the processing

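Under 12 other settings and 30 fits that each left out 1 library, 0 members other than *Cst7* were called against WT, and 0 members in the other comparisons. In the 498 fits of single members the lowest adjusted p was 0.0606 and the largest absolute log2 difference 0.435. *Cst7* stayed between 1.89 and 2.59 above WT on the log2 scale. Differences with an absolute value below 0.2 in the main fit changed sign in 37 fits. With the number range as a covariate these were *Ctsl* at 0.1607 in Homo and 0.0718 in Het males, *Lgmn* at 0.0098 in Homo males and, in Homo females, *Cst3* at -0.074, *Ctsf* at -0.0027 and *Lgmn* at -0.0117. Late numbered mice alone gave *Ctsl* 0.2008 and *Lgmn* 0.0408 in Homo males, *Ctsl* 0.1325, *Cst3* 0.0159 and *Lgmn* 0.0037 in Het males, and *Cstb* 0.0031 in Homo females. Array weights gave *Ctsl* 0.0109 in Het males, quantile normalization *Lgmn* -0.0161 in Homo females, and no scaling *Ctsc* 0.0036 and *Ctsf* 0.0027 in Het females. Without the 2 Het libraries with *Bin1* in the Homo range, *Cstb* was -0.0052 and *Ctsf* 0.0037 in Het females. The cause was not tested.

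Leaving out 1 library moved *Ctsl* between -0.2191 and 0.0096 in Homo males (above 0 without Homo-M-0093) and between -0.1666 and 0.0368 in Het males (above 0 without Het-M-0100). In Homo females *Cst3* lay between -0.0217 and 0.0562 and *Cstb* between -0.0949 and 0.0247. In Het females *Cstb* lay between -0.0058 and 0.1015, *Ctsc* between -0.0711 and 0.0501 and *Ctsf* between -0.0772 and 0.0442. Quantile normalization gives *Cst3*, the highest gene of every library, 1 common value and so a difference of 0 by construction. No paired analysis was possible because no mouse number is shared between groups. Absolute depth is unknown, and *Ctsk* is too low for a comparison.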
